A study of Mus musculus with 4 samples.

Results

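The 1761 splice junctions described here each join the exons on either side of 1 exon whose length is not a multiple of 3, in thymocytes from wild-type mice (n = 2) and from mice labelled hnRNP L KO (n = 2). They were chosen from 62809 junctions that the authors marked as putative and that had at least 1 read, out of 1921627 junctions listed. A junction was taken when both of its ends were ends of known junctions of the same gene, exactly 1 exon lay between them, and the 4 libraries together held at least 5 reads across it. Of 14898 putative junctions with a read that skip 1 exon, 1761 in 1508 genes passed, and 1300 of those genes held 1 such junction. The reads chose the junctions, so that they had reads is no finding, but the rule did not use the contrast of KO with wild type.

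Each library held total thymocytes, the developing T cells of the thymus at all their stages, from 1 mouse. The labels name the genotypes wild type and hnRNP L KO. They give all 4 mice the same mixed background of CD45.1, C57BL/6, an LckCre transgene and the fluorescent reporter Gt(ROSA)26Sortm4(ACTB-tdTomato,-EGFP)Luo. The Lck promoter drives expression in the T cell lineage. No source used here gives the ages or says which mice carried Cre. Because whole thymocyte populations were sequenced, fewer cells of a type and less RNA per cell cannot be told apart.

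Most exons of a protein-coding gene are spliced together in a fixed order, and an exon left out in some transcripts is a cassette exon. Leaving out a coding exon whose length is not a multiple of 3 shifts the reading frame downstream, so that an early stop codon is usually met. Transcripts with a stop codon well upstream of their last exon-exon junction are typical targets of nonsense-mediated decay, a pathway that degrades them. hnRNP L is an RNA-binding protein that binds CA-rich RNA and regulates which exons are included, CD45 exons in T cells being its best-known targets.

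The name "unannotated and frame-shifting" was checked against a later annotation, GENCODE M21. By chromosome, strand and the lengths of the exon and its introns, 1746 of 1761 exons were matched. For 705 of these, 40.4%, the skipping junction is an intron of an M21 transcript, so these skips are unannotated in the deposited files but annotated in M21. The remaining 1041 are not introns of M21. By place, 1507 exons were coding, 108 held the start codon, 86 lay in the 5′ UTR, 22 held the stop codon, 2 lay in the 3′ UTR and 21 belonged to non-coding transcripts. A length that is not a multiple of 3 therefore shifts a reading frame for most, and not for all. Of 1500 coding exons with a usable frame, skipping put a new stop codon more than 50 nt before the last junction in 1231, or 82.1%. In 224 the new stop came later but before the normal one, in 44 past the normal one, and in 1 none was found. A median of 11 codons (range 0 to 391) were read out of frame before the new stop, and a median of 36.3% of the protein remained upstream of it.

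The exons shown first are those on which the results turn: Dpp4, the 1 skip that passed the tests, Gpcpd1, the coding exon with most skip reads, and Prkcb and Usp1, from the exons with the smallest p toward more and toward less skipping in KO. Sequences are those of GENCODE M21 transcripts (GRCm38), 5′ to 3′ on the transcribed strand. Capitals mark CACA, a short CA-rich word, searched on the transcribed strand alone.
Dpp4 exon 10: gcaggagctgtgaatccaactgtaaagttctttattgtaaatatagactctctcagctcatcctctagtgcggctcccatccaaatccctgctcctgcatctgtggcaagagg
Gpcpd1 exon 5: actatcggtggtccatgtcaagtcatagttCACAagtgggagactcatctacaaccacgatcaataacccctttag
Prkcb exon 3: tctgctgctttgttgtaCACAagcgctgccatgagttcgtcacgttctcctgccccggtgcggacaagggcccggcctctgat
Usp1 exon 5: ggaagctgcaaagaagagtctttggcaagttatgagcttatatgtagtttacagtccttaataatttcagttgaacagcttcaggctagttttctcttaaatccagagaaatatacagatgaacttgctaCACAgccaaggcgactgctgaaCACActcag
They lie at chr2:62372755-62372867 (minus strand), chr2:132558607-132558682 (minus strand), chr7:122424959-122425041 (plus strand) and chr4:98929694-98929854 (plus strand). The Dpp4 exon holds no CACA, Gpcpd1 and Prkcb hold 1 each, and Usp1 holds 2.

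Joining the neighbours of these exons gives short stretches of shifted frame, shown for the same genes and for Lta4h, where the new stop is late. Each line opens at a codon boundary, with the last 12 bases of the upstream exon (13 for Prkcb), runs across the skipping junction and ends with the new stop codon in capitals.
Dpp4 joined without exon 10: ccatacccaaagggatcactatttatgTGA
Gpcpd1 joined without exon 5: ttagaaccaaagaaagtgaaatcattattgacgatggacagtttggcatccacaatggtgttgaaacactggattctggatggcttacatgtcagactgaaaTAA
Prkcb joined without exon 3: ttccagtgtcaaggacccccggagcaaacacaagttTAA
Usp1 joined without exon 5: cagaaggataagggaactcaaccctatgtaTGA
Lta4h joined without exon 17: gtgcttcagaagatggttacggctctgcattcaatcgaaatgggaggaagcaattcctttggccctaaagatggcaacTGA
Dpp4 keeps 252 of 760 codons, reads 5 out of frame and stops 1294 nt before its last junction. Gpcpd1 keeps 77 of 675 codons, Prkcb 68 of 673 and Usp1 132 of 784, and their new stops lie 1438, 1549 and 1041 nt before the last junction. Lta4h keeps 510 of 611 codons and stops 36 nt before the last junction, inside the 50 nt that the rule of nonsense-mediated decay leaves out.

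The libraries held 4759678 and 6146421 junction reads in wild-type mice 1 and 2, and 3302915 and 3515308 in KO mice 1 and 2. Skip reads of the 1761 junctions numbered 8277, 10455, 5475 and 6013 in the same order, or, scaled to the library's junction reads as CPM, 1739, 1701, 1658 and 1711. Hnrnpl stood at 854 and 813 CPM (of gene reads) in wild type and at 467 and 208 in KO, so that 56.0% and 25.001% of the wild-type mean remained. Its log2 fold change of -1.30 (SE 0.42) did not pass edgeR's quasi-likelihood test (adjusted p = 0.486). Thymocyte markers, all 10 of 10 detected, summed to 14089 to 16871 CPM. Erythroid markers summed to 287 in KO mouse 1 against 64.9 to 81.0 in the other libraries, and KO mouse 1 was the 1 library with reads of the Y-linked Ddx3y above 1 CPM (149 CPM). Xist, made from an X that is silenced in females, had 8.04 CPM there and 1486 to 2823 in the other libraries, so by these reads the KO mice differ in sex. B cell (34.2 to 40.5), myeloid (200 to 224) and stromal (211 to 288) markers stayed low, and the part of any of these in the results was not tested.

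Over all 1761 exons pooled, skipping was a minority outcome, and the genotypes did not separate. The skip share, 100 times the skip reads over the skip reads plus the mean reads of both inclusion junctions, was 5.57% and 5.61% in wild type and 5.43% and 5.82% in KO. The reads of both inclusion junctions can differ: their totals were 3-fold or more apart in 585 of 1746 exons with inclusion reads (33.5%, beside 33.6% of all 2907 exons tested below), so single shares can depend on the junction used. The means were 5.59 ± 0.0334% and 5.62 ± 0.272% (SD, n = 2 each), and the wild-type values lay between the KO values. In-frame skips chosen by the same rule, 1198 of them, had a higher pooled share in every library, from 12.8% to 14.3%. Annotated cassette exons of the same construction were skipped far more, at 53.4% to 57.9% where frame-shifting (222 exons) and 58.4% to 60.1% where in frame (498 exons). The median over the single exons was 5.93% and 7.29% in wild type and 4.84% and 5.83% in KO. KO libraries also held fewer junction reads, and 519 and 438 of the exons had 0 skip reads in KO mice 1 and 2 against 331 and 186 in wild type. The part of depth in that difference of medians was not tested.

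Where the exon lies went with how often it was skipped. Coding exons had pooled shares of 4.55% and 4.79% in wild type and 4.44% and 4.82% in KO. Exons in the 5′ UTR, which carry no reading frame, stood at 34.6% and 31.8% against 36.2% and 35.2%, and those with the stop codon at 25.7% and 24.7% against 22.3% and 24.3%. Exons with the start codon, at 4.89% to 5.62%, were near the coding ones by this pooled share, to which exons with most reads contribute most. By the median over single exons the order differed: 33.9% in the 5′ UTR, 12.8% with the start codon, 10.97% with the stop codon and 7.04% in coding exons. Skips found in M21 had pooled shares of 11.5% to 12.1% and those not found there 2.94% to 3.51%. The orders of pooled shares hold in all 4 libraries, and they describe exons that the read minimum selected.

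**Figure D1:**
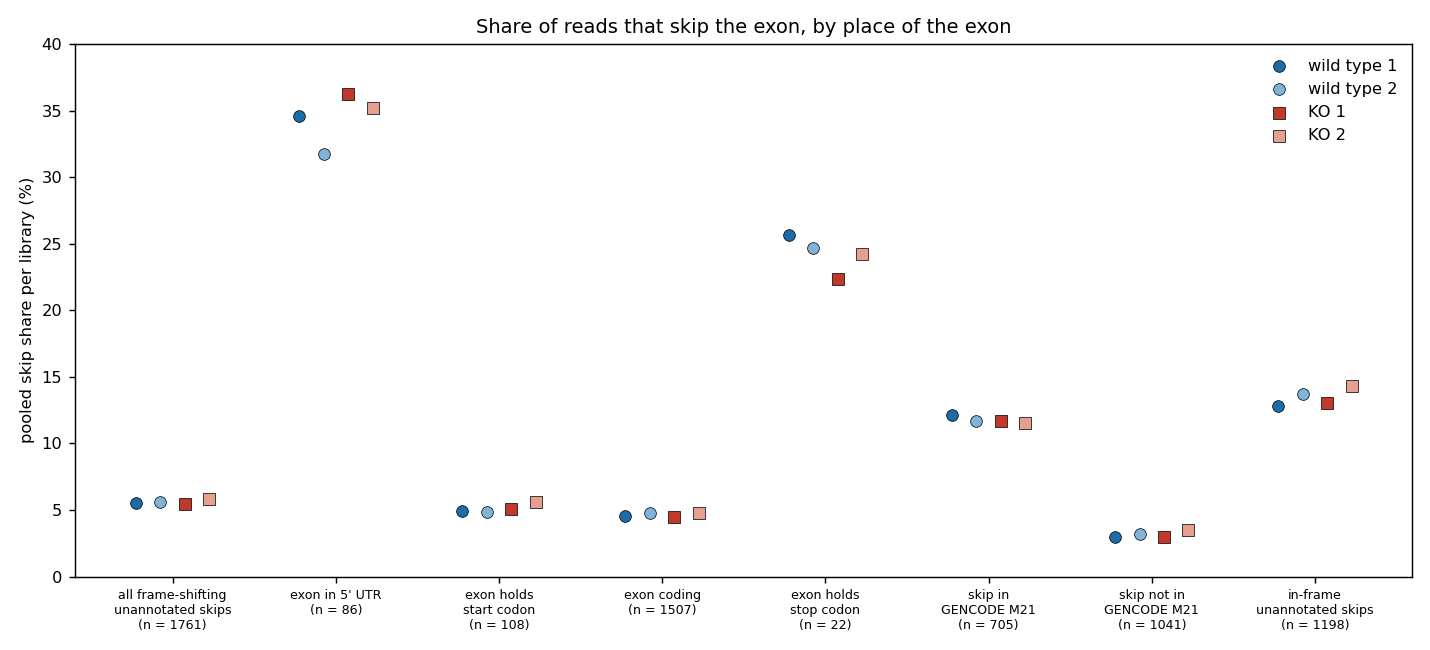
Pooled skip share (vertical axis, percent) in each library, for all 1761 exons, for the exons by place, for skips in or not in GENCODE M21, and for in-frame skips. Circles are wild-type mice and squares KO mice. Exons in the 5′ UTR sit above 31% in every library and coding exons below 5%, with no gap between genotypes that exceeds the spread of the mice in the set of all exons.

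The highest read counts belonged largely to skips that M21 lists. Of the 30 exons with at least 100 skip reads, 28 have a skipping junction that is an intron of M21, 16 are coding and 11 lie in the 5′ UTR or hold the start codon. Of the 1405 matched exons with under 20 skip reads, 485 (34.5%) are in M21 and 1250 are coding. Skipping was the major outcome, over 50% of pooled reads, for 127 exons. Of the 126 of these that were matched, 61 were coding and 52 lay in the 5′ UTR or held the start codon. By contrast 639 of 1761 exons were skipped in under 5% of reads and 98 in under 1%.

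Tex10 exon 2 of 236 nt, in the 5′ UTR of a gene linked to ribosome biogenesis, had most skip reads: 241 and 200 in wild type and 168 and 128 in KO, with no inclusion read, a share of 100% in every library. Krcc1 exon 3 of 185 nt, also in the 5′ UTR, was at 100% throughout, with 84, 99, 66 and 78 skip reads. In both genes the known junctions of the exon had no reads at this depth. Racgap1 exon 2 (131 nt, 5′ UTR), of a GTPase-activating protein that acts in cytokinesis, was skipped at 84.1% and 85.4% in wild type and 93.3% and 89.3% in KO. Zfand6 exon 2 (161 nt, 5′ UTR) stood at 85.4% and 90.4% against 97.1% and 98.4%, and P2ry10 exon 2 (175 nt, 5′ UTR), of a lysophosphatidylserine receptor, at 35.3% and 26.5% against 42.5% and 43.9%. In these 3 both KO values exceeded both wild-type values, though by the upstream inclusion junction alone the groups overlapped for Racgap1, and none passed the exon test (adjusted p = 0.749 to 0.928).

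Zc3hc1 exon 10 of 44 nt holds the stop codon and was skipped in nearly every transcript, at 99.4% and 99.7% in wild type and 98.0% and 99.1% in KO. Fmnl3 exon 26 (100 nt), of a formin that builds actin filaments, also holds the stop codon, at 96.0% and 96.7% against 93.1% and 91.7%. Skipping such an exon moves the end of the protein to a later exon and is a common way to make alternative C termini. Uckl1 exon 8, a coding exon of 17 nt in a gene related to uridine kinases, was skipped at 91.2% and 91.3% against 83.6% and 88.9%. Tbxa2r exon 2 (154 nt, 5′ UTR), of the thromboxane A2 receptor, stood at 82.2% and 84.9% against 73.9% and 63.6%. In all 4 genes both KO values lay below both wild-type values. By the downstream inclusion junction alone this held for Fmnl3 and not for the other 3. For Uckl1 it did not hold by the upstream junction alone either. The adjusted p of the exon test ran from 0.866 to 0.975.

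Among coding exons, Gpcpd1 exon 5 of 76 nt led, in a gene for an enzyme that hydrolyses glycerophosphocholine. It had 145 and 114 skip reads in wild type and 61 and 65 in KO, with shares of 72.3% and 73.1% (72.7 ± 0.536%) against 57.8% and 62.8% (60.3 ± 3.52%, SD, n = 2 each). Lta4h exon 17 of 83 nt, of leukotriene A4 hydrolase, had 48 and 72 skip reads against 31 and 40, with shares of 32.3% and 29.8% (31.1 ± 1.77%) against 23.0% and 23.3% (23.2 ± 0.147%). By this measure both exons had lower skip shares in both KO libraries, with differences of KO from wild type of -12.4 and -7.92 percentage points. The level depends on the inclusion junction used: pooled over libraries, the Lta4h share was 27.4% by the mean, 17.98% by the upstream junction and 57.7% by the downstream one, and its groups stayed apart by each. For Gpcpd1 the downstream junction alone gave 83.8% and 89.1% in wild type and 79.2% and 89.0% in KO, where the groups overlap. Neither passed the exon test by edgeR (adjusted p = 0.899 for Gpcpd1 and 0.969 for Lta4h), and both skips are introns of M21.

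**Figure D2:**
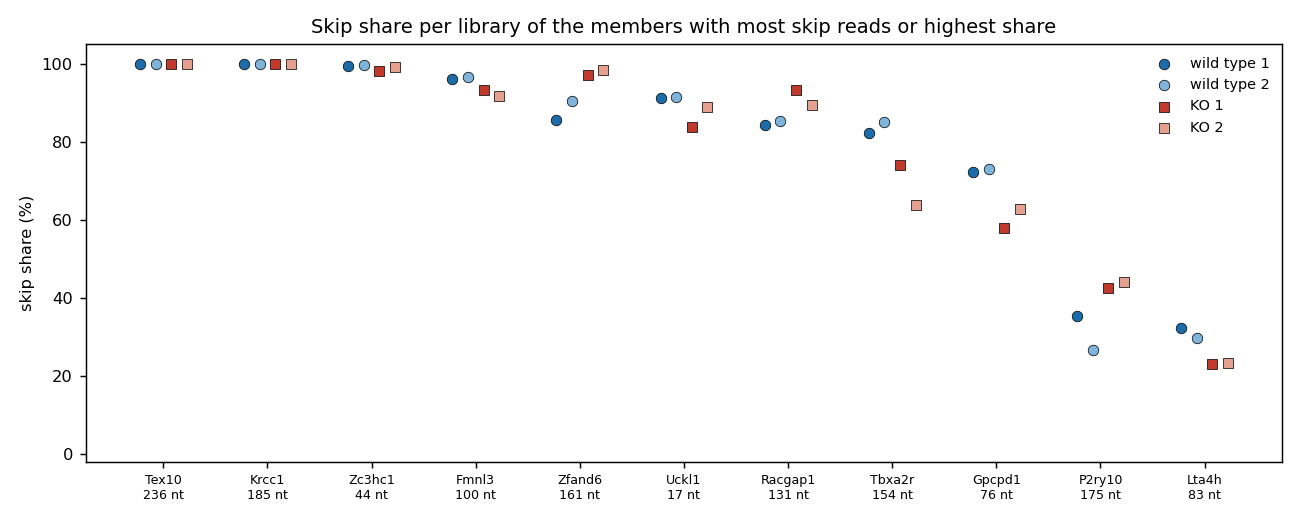
Skip share (vertical axis, percent) in each library for the 11 exons with most skip reads or the highest pooled share among tested exons. Circles are wild-type mice and squares KO mice. Tex10 and Krcc1 sit at 100% in every library, and Racgap1, Zfand6 and P2ry10 have both KO values above both wild-type values by this share, which uses the mean of both inclusion junctions.

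Whether skipping differed between KO and wild type was asked for every single-exon skip of the series that reached 10 reads in each library, 5 inclusion reads and 5 skip reads over the libraries. That left 2907 exons, 1529 of them frame-shifting and unannotated. The other 232 were not tested, 37 for too few inclusion reads and 195 for under 10 reads in some library. The edgeR quasi-likelihood test on inclusion and skip reads called 1 of the 1529, Dpp4, at an adjusted p under 0.05, against 0.0688% of all 2907 exons (2 exons, the other being Cd8b1, in frame). At an unadjusted p under 0.05 it counted 89 of 1529, or 5.82%, against 5.85% of all exons, which is the same share. Of these, 45 were skipped more in KO (background 2.72%) and 44 less (background 3.13%). On simulated reads with the sizes of these 2907 exons the test recovered 15.6% of changes of 3 on the log2 scale and 0.909% of changes of 2. Most changes of that size were thus missed in the simulation. It gave all exons the same dispersion, estimated without the genotype term, and changed the skip reads of KO alone. How many changes the test misses in the real reads cannot be read from it.

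By direction alone, 690 of 1529 exons were skipped more in KO and 839 less, with a median difference of -0.481 percentage points, beside -0.624 over all 2907 exons. Both KO shares lay above both wild-type shares in 226 exons, 14.8%, where the background is 14.0%. Both lay below in 325 exons, 21.3%, where the background is 22.4%. These shares are near those of all tested exons. All skip reads came from KO in 29 exons, 1.90% of 1529 beside 1.65% of all tested, and from wild type in 146, 9.55% beside 7.98%, and such exons met the minimum of skip reads through 1 genotype alone. By place, 44.1% of 1355 tested coding exons, 54% of 50 exons in the 5′ UTR and 56.6% of 83 exons with the start codon were skipped more in KO by sign.

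The junction test asks whether a skipping junction took a different share of its gene's junction reads, and 809 of the 1761 had the 10 reads it needs. It called 1, that of Dpp4, against 0.00420% of all 95139 junctions tested. At an unadjusted p under 0.05 it counted 69, or 8.53%, against 2.55% of all junctions, 24 of them used more and 45 less in KO. Putative junctions outside this set came to 7.14% (103 of 1443) and known junctions with 10 to 99 reads to 3.20%. The share is thus near that of other putative junctions rather than of known ones.

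**Figure D3:**
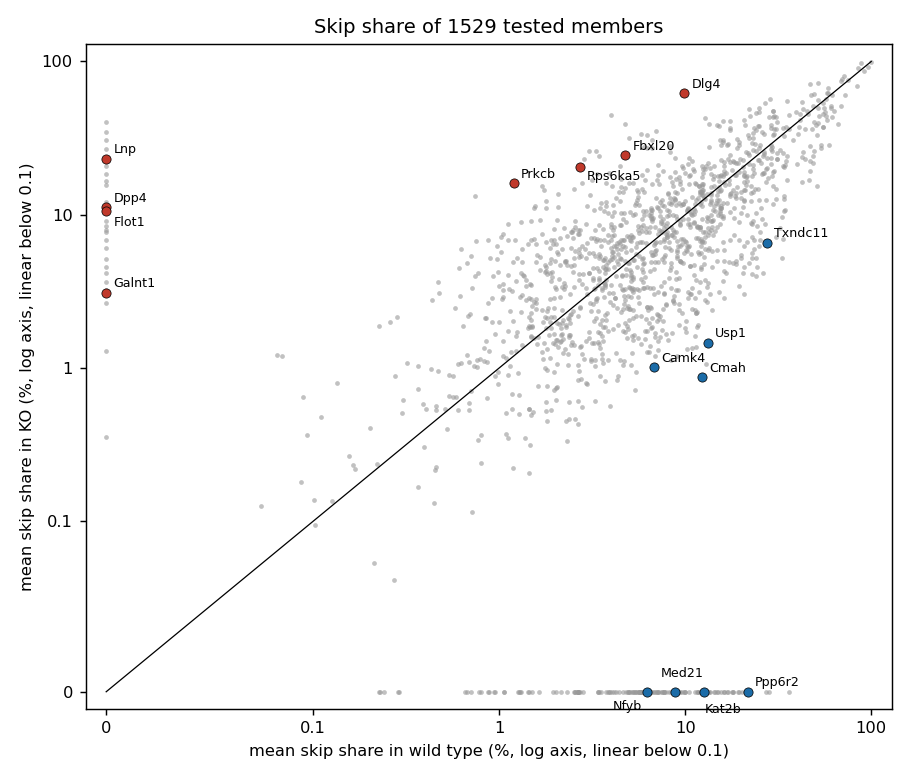
Mean skip share of 1529 tested exons in wild type (horizontal) and KO (vertical), in percent on log axes that are linear below 0.1. Red points are the 8 exons with the smallest exon-test p toward more skipping in KO, blue points the 8 toward less, and the line marks equal shares. Dpp4 is at 0% in wild type and 11.2% in KO, and the points along both edges are exons with 0 skip reads in 1 genotype.

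Dpp4, the surface peptidase CD26 found on T cells, rose in skipping of its exon 10 of 26. The exon has 113 nt (mm9 chromosome 2, 62210812 to 62210924, minus strand) and is coding. The skipping junction (62203120 to 62212423) had 0 and 0 reads in wild type and 13 and 15 in KO. It is not an intron of M21. The shares were 0% and 0% in wild type, where a count of 0 allows up to 1.60% and 1.65%, and 10.97% (exact Clopper-Pearson 95% interval 5.95 to 17.96%) and 11.41% (6.501 to 18.05%) in KO. The KO mean was 11.2 ± 0.309% (SD, n = 2). It was 6.89 times the mean share that a floor of 3 reads gives in place of the wild-type counts of 0. That ratio leaves out the counting error of the KO shares, so it is no lower bound. The exact 95% interval of the same 0 counts reaches 1.94% and 2.01%. Intervals and floors cover counting error alone, because reads copied by PCR do not count molecules.

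Inclusion reads of Dpp4 differed between both sides of the exon. The junction from exon 9 to exon 10 had 140 and 129 reads in wild type and 64 and 72 in KO, and that from exon 10 to exon 11 had 236 and 234 against 147 and 161. The skip share in KO was therefore 16.9% and 17.2% by the upstream junction alone and 8.125% and 8.52% by the downstream one, and it was 0% in wild type by either. The exon test gave a log2 change of inclusion over skipping of -7.25 (adjusted p = 0.0194) and the junction test gave an adjusted p of 0.0047. With 0 wild-type reads that log2 change depends on the prior count and is no bound. All 28 skip reads came from KO, so the junction entered the set and the tests through the group where it is high. Neither call was kept when any 1 library was left out: without wild-type mouse 1, wild-type mouse 2, KO mouse 1 and KO mouse 2 the exon test gave adjusted p = 0.317, 0.228, 0.0906 and 0.251, and the junction test by edgeR gave 0.0932, 0.141, 0.169 and 0.0624. The exon call was also lost with DESeq2 (adjusted p = 0.293) and with the downstream junction alone (0.282), and the junction call with limma-voom (adjusted p = 0.9999). Over these exon-test alternatives the log2 change stayed between -6.98 and -7.50. Each of them kept 0 wild-type skip reads, so this narrow range is no sign of a stable effect.

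The level of Dpp4 itself was 227 and 230 CPM in wild type and 229 and 259 in KO (log2 fold change 0.09, SE 0.12, adjusted p = 0.788 by edgeR). The libraries differ in the skip and overlap in the level. A further skip in the gene, of exon 2 (85 nt, coding), had 3 and 3 reads in wild type and 3 and 6 in KO, with shares of 3.57% and 4.38% against 6.52% and 11.01% (adjusted p = 0.922 in the exon test by edgeR). That skip is an intron of M21.

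**Figure D4:**
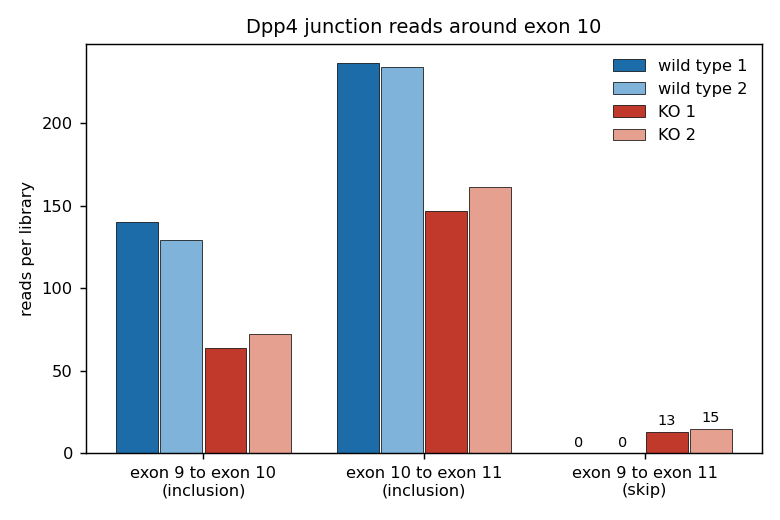
Reads per library (vertical axis) across the 3 junctions around Dpp4 exon 10, with blue bars for wild-type and red bars for KO mice. The skipping junction has 0 reads in both wild-type libraries and 13 and 15 in KO, beside 64 to 236 reads on the inclusion junctions.

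After Dpp4, the 7 exons with the smallest p toward more skipping in KO did not pass the test (adjusted p from 0.664 to 0.749 by edgeR). Prkcb exon 3 (83 nt, coding), of protein kinase C beta, which acts downstream of antigen receptors, had 1 and 1 skip reads in wild type and 6 and 12 in KO, with shares of 1.22% and 1.18% against 13.95% and 18.2%. Dlg4 exon 18 (110 nt), of the scaffold protein PSD-95, had 1 and 2 against 11 and 6 reads, and shares of 8% and 11.8% against 66.7% and 57.1%. Both genotypes were apart in each, on few reads.

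Rps6ka5 exon 4 (116 nt), of the kinase MSK1, stood at 1.80% and 3.64% against 20.8% and 20%, on 1, 3, 8 and 8 skip reads. Fbxl20 exon 8 (127 nt), of an F-box protein of a ubiquitin ligase, stood at 5.11% and 4.40% against 23.5% and 25.4%, on 7, 2, 10 and 8 reads. By the mean of both inclusion junctions the groups did not overlap in either gene. For Fbxl20 this rests on the downstream junction: by the upstream one alone, with 8 reads in wild-type mouse 1 against 252 downstream, the shares were 46.7% and 6.06% against 27.8% and 30.8%, which overlap, and the log2 change of inclusion over skipping went from -2.61 to -0.63. Flot1 exon 4 (91 nt), of the membrane protein flotillin 1, had 0 and 0 skip reads against 3 and 6. Galnt1 exon 4 (175 nt), of an enzyme that starts O-glycosylation, had 0 and 0 against 2 and 6. Their lower KO shares, 8.11% and 1.69%, lie just above wild-type limits of up to 7.79% and 1.64% at a floor of 3 reads. Exact 95% intervals of the wild-type counts of 0 reach 9.03% and 2.00%, above those shares. Lnp exon 5 (59 nt), of a protein of endoplasmic reticulum junctions, had 0 and 0 against 9 and 1, with KO shares of 39.1% and 7.41%, so that KO mouse 1 carried most of its reads. In wild type its counts of 0 allow up to 11.8% and 8.11%, above the lower KO share. The skips of Prkcb and Fbxl20 are not in M21 and the other 5 are. All 7 exons are coding, and each new stop lies more than 50 nt before the last junction.

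The 8 exons with the smallest p toward less skipping in KO did not pass either (adjusted p = 0.749 for each by edgeR). Usp1 exon 5 (161 nt), of a deubiquitinase that acts in DNA repair, had 15 and 14 skip reads in wild type and 1 and 1 in KO, with shares of 16.1% and 10.3% against 1.72% and 1.21%. Txndc11 exon 6 (113 nt), of a thioredoxin-domain protein, had 20 and 26 against 3 and 4 reads and shares of 31.0% and 24.1% against 5.50% and 7.62%. Camk4 exon 2 (79 nt), of the calcium-dependent kinase CaMKIV of thymocytes, had 17 and 25 against 1 and 2 reads and shares of 5.63% and 7.91% against 0.608% and 1.41%. In all 3 both wild-type mice were above both KO mice, by either inclusion junction alone as well. By the upstream junction the Camk4 shares were 19.3% and 18.2% against 1.54% and 4.76%.

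Kat2b exon 9 (137 nt), of the histone acetyltransferase PCAF, had 8 and 6 skip reads in wild type and 0 and 0 in KO, where a count of 0 allows up to 8.70% and 10.2%. Med21 exon 2 (115 nt), of a Mediator subunit, had 4 and 7 against 0 and 0, and Ppp6r2 exon 3 (155 nt, 5′ UTR), of a subunit of protein phosphatase 6, had 8 and 3 against 0 and 0. Nfyb exon 4 (131 nt), of a CCAAT-binding factor, had 2 and 12 against 0 and 0, and Cmah exon 8 (191 nt), of the enzyme that makes the sialic acid Neu5Gc, 16 and 5 against 1 and 0. The wild-type shares of Kat2b were 16.7% and 8.70%, so the limits that 0 reads allow in KO reach the lower of them. KO limits also reached the lower wild-type share for Med21 (6.19% and 8%, beside 6.15% and 11.6%) and Ppp6r2 (13.6% and 31.6%, beside 32% and 11.5%). So they did for Nfyb (4.92% and 4.72%, beside 2.70% and 9.80%). In Cmah the limit of KO mouse 2 was 7.89%, beside wild-type shares of 17.9% and 6.85%.

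**Figure D5:**
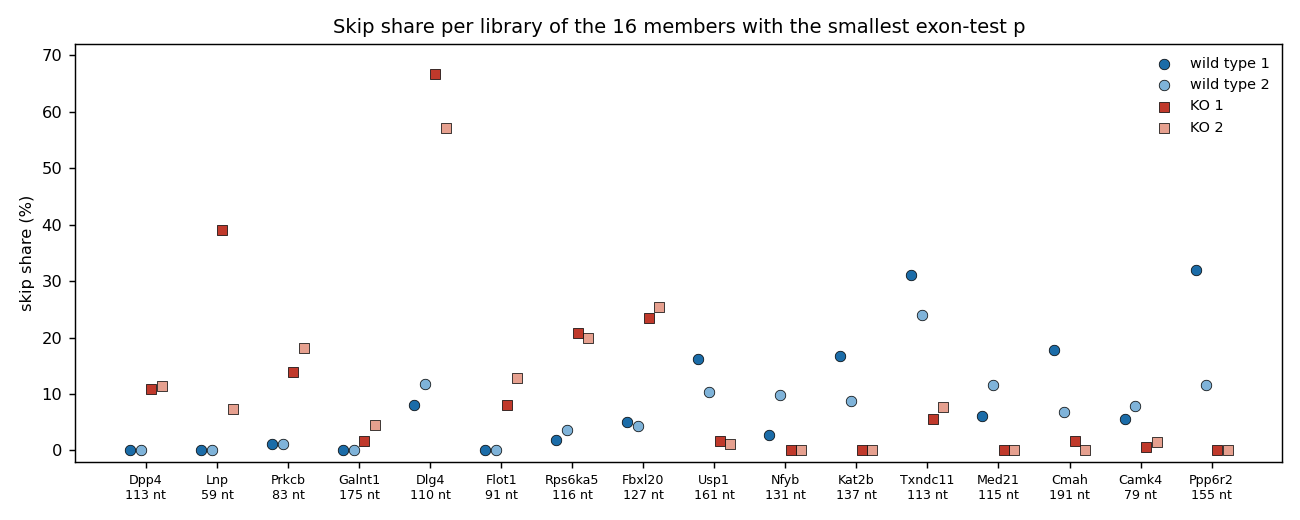
Skip share (vertical axis, percent) in each library for the 16 exons with the smallest exon-test p, 8 toward more skipping in KO on the left and 8 toward less on the right. Circles are wild-type mice and squares KO mice. Dpp4 alone passed the adjusted test, and Lnp has KO values of 39.1% and 7.41% that lie far apart.

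Genes of T cells and of RNA processing were then read from 9 lists. Of 18 genes listed as T cell receptor and coreceptor chains, which include other surface proteins such as Dpp4, 6 held 7 skips. Of the 7 tested, 1 was called, Dpp4 exon 10, beside 0.0688% of all tested exons. The lists were chosen with earlier results known, so this adds no support to the Dpp4 call. By sign 5 (71.4%) were higher and 2 lower in KO, where 43.2% of all tested exons were higher. The second Dpp4 skip is given above, and the remaining 5 had low shares by the mean of both inclusion junctions. Cd3g exon 5 (44 nt), of the CD3 gamma chain, had 11 and 6 reads in wild type and 1 and 20 in KO, with shares of 0.933% and 0.416% against 0.141% and 2.30%. Cd247 exon 2 (104 nt), of the CD3 zeta chain, had 1 and 12 against 1 and 0, and Thy1 exon 2, which holds the start codon, 1 and 4 against 4 and 2, all at or under 1.30%. For Cd247 that share rests on the downstream junction, with 594 to 1814 reads a library: by the upstream junction, with 5 to 11, it was 11.1% and 52.2% in wild type and 8.33% and 0% in KO. Neither gene's groups were apart by the mean of both junctions. The median pooled share of this list was 0.906%, beside 7.76% over all 1761 exons.

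Of the 36 T cell receptor signalling genes, 6 held 8 skips, 3 higher and 5 lower in KO by sign, with 0 called and 1 at an unadjusted p under 0.05 (12.5%, where 5.85% of all tested exons had one). That exon, named because the count is 1, was Lat exon 3 (35 nt), with 0 and 1 skip reads in wild type and 3 and 4 in KO (adjusted p = 0.749 by edgeR). Nfkb1 exon 24 (178 nt), of the p105 precursor of NF-kappa-B, had 14 and 22 skip reads in wild type and 2 and 4 in KO, with shares of 11.7% and 12.2% against 2.17% and 5.06% (unadjusted p = 0.059 by edgeR). Lat exon 4 (88 nt), of the membrane adaptor of the receptor, stood at 0.107% and 0.448% against 0.816% and 0.960%. Both genes had groups that did not overlap, in opposite directions. Of 26 thymocyte transcription factors, 4 held 8 skips, 4 higher and 4 lower. Satb1 exon 4 (127 nt), of a chromatin organiser, had most reads, 27 and 38 against 7 and 17, with shares of 2.30% and 2.25% against 0.726% and 1.95%. Lef1 exon 11 (41 nt), which holds the stop codon, stood at 6.47% and 7.08% against 4.70% and 4.16%. Both were lower in both KO mice, Satb1 only by the mean and by the downstream junction, and neither passed.

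Of 18 recombination and DNA repair genes, 5 held 7 skips, of which 6 were tested, 2 higher and 4 lower. Xrcc6 exon 10 (130 nt), of the end-joining protein Ku70, had 5 and 5 skip reads against 0 and 3. Of 33 genes of actin and migration, 6 held 8 skips, 7 higher and 1 lower in KO by sign, where 43.2% of all tested exons were higher. Coro1a, an actin regulator, holds 3 of those 8, each at or under 0.444% in every library, so the directions rest on 1 to 5 reads a library there. The groups were apart in 1 of the 8, KO higher, or 12.5% beside the 14.0% of all tested exons. It was Rac1 exon 3 (118 nt), of a small GTPase that regulates actin, named because the count is 1, with 0 and 0 skip reads in wild type and 4 and 1 in KO, shares of at most 0.559% and an adjusted p of 0.749 by edgeR. Of 42 cell cycle and apoptosis genes, 4 held 7 skips, 4 higher and 3 lower. Mdm2 exon 3 (85 nt), of the ubiquitin ligase of p53, holds the start codon and was skipped at 67.2% and 71.1% against 65.8% and 82.7%. Mdm4 exon 7 (68 nt), whose skipping gives the known short form Mdm4-S, stood at 19.8% and 27.7% against 17.9% and 40%. The genotypes overlapped in both by the mean of both junctions.

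Genes that regulate splicing held skips with high shares beside rare ones. Of 31 hnRNP genes, 12 held 14 skips, and of 40 SR protein and splicing regulator genes, 12 held 16, with median pooled shares of 7.66% and 10.6%. None of the 13 and 16 tested was called. Ptbp1 exon 10 (34 nt), of the polypyrimidine tract-binding protein, is skipped at 7.04% and 3.23% in wild type and 9.02% and 2.83% in KO. The matching exon of its paralog Ptbp2, also 34 nt and exon 10, was skipped at 78.6% and 76.5% against 94.1% and 92.3%, on 11, 13, 8 and 6 skip reads, and was not tested because some libraries held under 10 reads. Skipping of this exon pair is a textbook route by which PTB proteins limit their own and each other's messages. The paralogs differed in share in every library, also by either inclusion junction alone. The genotypes overlapped for Ptbp1. For Ptbp2 they overlapped by the downstream junction alone, at 68.75% and 100% in wild type against 88.9% and 85.7% in KO. Its mean inclusion reads were 3 and 4 in wild type and 0.5 and 0.5 in KO.

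Hnrnpr exon 2 (169 nt), which holds the start codon, was skipped at 49.2% and 51.8% in wild type and 39.0% and 37.6% in KO, and Hnrnph1 exon 5 (139 nt) at 23.3% and 18.3% against 18.8% and 19.1%. Clk4 exon 4 (91 nt), of a kinase of SR proteins in whose family this skip is known to give a truncated form, stood at 58.8% and 58.4% against 65.1% and 69.0%. Mbnl1 exon 2 (1049 nt), with the start codon of a muscleblind protein, stood at 63.7% and 52.6% against 45.5% and 37.2%. Hnrnpr, Clk4 and Mbnl1 had groups apart by the mean of both inclusion junctions, and by each junction alone this held for Hnrnpr. Clk4 overlapped by the downstream junction and Mbnl1 by either, with 69.2% and 79.5% against 50% and 84.2% by the upstream one. Both KO values of Hnrnph1 lay between the wild-type values. Mbnl1 exon 8 and its paralog Mbnl2 exon 8 both have 95 nt, and their shares were 3.74% to 6.31% and 66.7% to 83.6% over the 4 libraries. The level of Mbnl1 exon 8 depends on the junction used, at 34% to 53.0% by the upstream one, with 28 to 34 reads a library, and 1.98% to 3.36% by the downstream one, with 843 to 1416. By the upstream junction Mbnl2 stood at 77.8% to 85.2%, so the paralogs were apart by a smaller margin. Rbm5 exon 16 (85 nt), of an RNA-binding splicing factor, had 14.04% to 16.05% in all 4. Over the 80 exons named by rule, the groups were apart in 44 by the mean of both junctions, and in 27 of these they were apart the same way by each junction alone.

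Of 22 nonsense-mediated decay factors, 20 were in the files, and 5 held 8 skips, 4 higher and 4 lower in KO, with 0 called. Rnps1 exon 3 (181 nt), of a protein laid down at exon junctions, holds the start codon and was skipped at 27.5% and 31.7% in wild type and 57.9% and 37.5% in KO. By the downstream junction alone its groups overlapped, at 39.6% and 31.25% against 61.1% and 29.4%. Smg6 exon 9 (62 nt), of the endonuclease of the pathway, stood at 7.58% and 3.55% against 1.69% and 4.08%. The gene levels of the 20 factors were higher in KO for 13 and lower for 7, with a median log2 fold change of 0.02 beside 0.01 over all 13733 genes, and none was called.

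The genes that hold these skips were of high level: their median was 10.5 RPKM over 1508 genes, against 4.08 over the 13733 genes tested. The share of frame-shifting exons that entered the set grew with reads, from 2.19% among the exons with 20 to 64 inclusion reads to 4.93% among those with 229 or more. It was 3.49% in all, against 3.36% for in-frame exons. At the same skip share, an exon with more reads reaches the minimum of 5 skip reads more easily. The high level of the host genes and this rise are therefore no findings about the genes. In the gene test 0 of 1498 tested host genes were called by edgeR, against 0.00728% of all genes. At an unadjusted p under 0.05 there were 132, or 8.81%, against 9.91% of all genes. DESeq2 called 15, or 1.01%, against 0.853%. Without the low-count filter 6 were called by edgeR, or 0.398%, against 0.314%. Without KO mouse 1, which has the higher Hnrnpl of the KO mice and differs in sex from the other 3 mice by Ddx3y and Xist, edgeR called 51, or 3.40%, against 2.73%. With the mouse number as a block it called 8, or 0.534%, against 0.881%.

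Exons near either end of the transcript were frequent in the set. Exon 2 made up 20.4% of 1738 exons with a sequence, 14.4% of the in-frame skips and 9.21% of 34833 frame-shifting exons that had 10 or more inclusion reads in each library and no skip read. Among exons of the set with at least 50 skip reads it made up 34.4%, and among its 1504 coding exons 13.3%. The set had no such minimum of inclusion reads in each library, so it and the unskipped exons passed unlike filters. The penultimate exon made up 13.98%, against 10.2% of unskipped exons. The last base was G in 78.3% against 79.5%, and CACA occurred in the last 50 nt of 22.9% against 22.7% of exons at least 50 nt long. Median GC content was 47.8% against 50.0%, and median length 109.5 nt against 121 nt. Among the 80 exons of the set with at least 50 skip reads and at least 50 nt, 35% had CACA in the last 50 nt. In the first 50 nt it was 21.25% of them, against 19.1% of unskipped exons. The longer word CACACA occurred in the last 50 nt of 0% of them, against 1.71% of unskipped exons. These differences were not tested. Of the 8 exons with the smallest p toward more skipping in KO, 12.5% had CACA in the last 50 nt and 25% in the first 50 nt. A match to a short word is a description and says nothing of binding.

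Skip reads were seen in all 4 libraries for 749 exons, in 3 for 614, in 2 for 334 and in 1 for 64. Of the 64, 37 were in wild-type mouse 2, the deepest library, 14 in wild-type mouse 1, 7 in KO mouse 1 and 6 in KO mouse 2. Of these, 3 had at least 10 reads, and they were picked after their values were seen. 1700061I17Rik had 87 reads in wild-type mouse 1 and 0 elsewhere, with no inclusion read. Eif2s3y, on the Y chromosome, had 22 reads in KO mouse 1 alone, a share of 51.8% there, and Hbxip had 11 in wild-type mouse 2 alone. At the edge of the rule, 300 exons had exactly 5 skip reads, with a median share of 3.51%, and 476 exons with 4 reads stayed outside, with a median share of 4.12%. Arpp21, a gene with 6 skips, and Dgka, with 5, held most per gene, and the 1761 skips concern 1753 distinct exons, so some share an exon.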

How the data were processed

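Total thymocyte RNA of 4 mice (2 wild type, 2 hnRNP L KO) was depleted of ribosomal RNA, fragmented with RNase III and sequenced, per the labels' protocols. The authors deposited raw read counts per junction, marked known or putative, and per transcript, with the ratio of reads to length and RPKM values. RPKM and ratio columns were checked against the deposited counts, and RPKM was used only to describe host genes. The build is mm9 per the submitters' processing notes. No source used here gives the aligner or the handling of strand, so overlapping and antisense genes cannot be told apart.

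Mapped reads numbered 69061265 to 122619310 per library, per the file headers. Tests used edgeR 4.0.16, DESeq2 1.42.0 and limma 3.58.1 in R 4.3.3, with Benjamini-Hochberg adjustment over all features and a threshold of 0.05. The exon test modelled the inclusion reads (sum of both junctions) and skip reads of each library, with 1 coefficient per library, 1 for inclusion and 1 for inclusion in KO. The junction test was diffSpliceDGE on junctions with at least 10 reads, and the gene test used TMM scaling and the transcript with most reads per symbol. Labels do not say more of the replicates than that they are different mice. Exons were matched to GENCODE M21 by chromosome, strand and lengths, never by converted coordinates, and 1587 of 1746 matches had the same symbol. A share's interval took the inclusion mean rounded to whole reads. The exon test was tested on simulated data.

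Members and lists were chosen with earlier results of these data known. Named are the called exons, the 8 with most skip reads, the 8 smallest p each way, the 6 highest shares among tested exons, and from each of 9 lists examples among the 6 with most reads. Same-numbered mice are not paired by the labels. Alternatives covered junction choice, filters, tools, scaling, a replicate block and each library left out.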

Additional observations from a re-analysis of the deposited data

How the results depend on the processing

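The count of called exons was 1, Dpp4, and became 0 with the downstream inclusion junction alone, 0 with DESeq2, and 0 to 0 with 1 library left out in turn. It stayed 1 under the other planned settings (upstream junction alone, no minimum per library, at least 20 reads in every library, no robust moderation). It was also 1 with inclusion as the rounded mean of both junctions, an alternative chosen after seeing the data. The count of called skipping junctions, 1, became 0 with limma-voom and 0 to 0 with 1 library left out. The count of called host genes was 0 and became 15 with DESeq2, 6 with no filter on low counts and 0 to 51 with 1 library left out, the 51 without KO mouse 1. With 1 library left out, the spread within the remaining lone mouse's group is taken to equal that of the other.

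With the mouse number as a replicate block, 1 exon, 1 junction (Dpp4 in both, adjusted p = 0.0324 and 0.0134 by edgeR) and 8 host genes were called. Same-numbered mice correlated at 0.0433 in their skip ratios and 0.296 in gene levels, and no source pairs them, so the number is only a name.

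The difference in pooled share, 0.0347 points, ranged from -0.158 to 0.227 with 1 library left out, and its direction is not established. Restricted to coding exons it was -0.0418 and to skips not in M21 0.123, both chosen after seeing the data. The 551 exons with groups apart became 283 at a minimum of 10 skip reads, where 729 exons are tested, and 927 to 1048 with 1 library left out, where 3 libraries separate more easily. Over the single named exons, 500 alternatives kept direction and side of the threshold or moved within the spread, 59 moved further, 6 lost the call (Dpp4) and 0 reversed. Dpp4 alone was called, so the other exons had no call to lose and the 500 are no measure of stability. They include Fbxl20 by the upstream junction, whose log2 change went from -2.61 to -0.63. Of 44 named exons with groups apart, 17 overlapped by 1 inclusion junction alone or by both, a comparison added after seeing the data. Depth limits every share here: the median exon had 9 skip reads over all libraries.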
